A study of Mus musculus with 18 samples.

Results

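The genes described here are 10 heat shock and mitochondrial chaperone genes of the mouse, taken by symbol from a table of 24537 genes and followed across CD8+ T cells given lithocholic acid (LCA), which gut bacteria make from primary bile acids. Of these, 6 code for chaperones of the cytosol (Hsph1, Hsp90aa1, Hsp90ab1, Hspa8, Dnaja1 and Dnajb1) and 4 for proteins of the mitochondrial matrix (Hspd1, Hspe1, Hspa9 and Lonp1). All 10 had enough counts to be tested, as did 11651 genes in all. RNA was sequenced from 18 libraries, in 6 groups of 3. Naive CD8+ T cells had received CRISPR ribonucleoproteins from a guide RNA kit against Nur77, the nuclear receptor encoded by Nr4a1 (labelled Nur77-KO, KO here), or a scrambled guide (labelled WT). All cells were then activated through CD3 and CD28, so the libraries without LCA are from activated cells too. Cells of each genotype were kept overnight with no LCA (control), with 10 µM LCA (LCA10) or with 50 µM LCA (LCA50). The labels name no clone, editing rate, animal age or strain, and they do not say whether the 3 libraries of a group came from separate animals or cultures, so p-values reflect only how far these libraries differ, and that difference may be technical. The series set out to learn what LCA does to WT and Nur77 KO CD8+ T cells.

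Molecular chaperones bind unfolded proteins and help them reach or regain their folded form. In the cytosol, Hsp70 proteins, such as the constitutive Hsc70 encoded by Hspa8, take clients from J-domain cochaperones (Dnaja1, Dnajb1), are recharged by nucleotide exchange factors such as Hsp110 (Hsph1), and pass many kinases and receptors on to Hsp90 (Hsp90aa1, Hsp90ab1). Many of these genes are transcribed under heat shock factor 1, which binds heat shock elements made of repeated GAA units. In mitochondria, mortalin (Hspa9) draws imported proteins through the inner membrane, the Hsp60 and Hsp10 chaperonin (Hspd1, Hspe1) folds them in a closed chamber, and the Lon protease (Lonp1) degrades damaged matrix proteins.

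Promoter windows of 250 bases before to 50 bases after a start site, from RefSeq on GRCm38.p6, were at hand for 6 of the 10 genes, in 11 windows. A heat shock element of 3 units was searched as GAA-NN-TTC-NN-GAA and as TTC-NN-GAA-NN-TTC, which are reverse complements written here with hyphens between units, and was found in 0.603% of 32851 mouse promoters. It was present for Hsph1, Hspd1 and Hspe1, and not for Dnaja1, Dnajb1 or Lonp1. Below are the windows of Hsph1 and Hspe1, which hold the element, and of Lonp1, which had the largest change with LCA of the 10 genes and holds none. Capitals mark the element.
Hsph1, chr5:149636287-149636586, minus strand: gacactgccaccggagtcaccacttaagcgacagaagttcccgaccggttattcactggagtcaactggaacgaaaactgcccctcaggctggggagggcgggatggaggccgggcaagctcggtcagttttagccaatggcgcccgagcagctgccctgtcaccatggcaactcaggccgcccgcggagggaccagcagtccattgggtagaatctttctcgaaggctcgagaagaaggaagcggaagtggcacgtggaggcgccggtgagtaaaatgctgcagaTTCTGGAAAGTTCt
Hspe1, chr1:55087898-55088197, plus strand: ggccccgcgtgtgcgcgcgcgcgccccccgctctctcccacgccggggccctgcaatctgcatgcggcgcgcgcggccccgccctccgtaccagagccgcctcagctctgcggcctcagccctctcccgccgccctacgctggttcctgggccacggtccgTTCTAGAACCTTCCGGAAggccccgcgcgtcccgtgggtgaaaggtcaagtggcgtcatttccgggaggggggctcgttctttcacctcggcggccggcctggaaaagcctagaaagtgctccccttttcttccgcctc
Lonp1, chr17:56626854-56627153, minus strand: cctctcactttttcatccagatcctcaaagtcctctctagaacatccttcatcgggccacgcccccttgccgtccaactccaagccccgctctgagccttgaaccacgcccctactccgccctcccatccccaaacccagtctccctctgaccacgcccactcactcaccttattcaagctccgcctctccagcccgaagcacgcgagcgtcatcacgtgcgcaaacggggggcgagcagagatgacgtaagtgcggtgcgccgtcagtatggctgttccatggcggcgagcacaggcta
Hspe1 and Hspd1 are read in opposite directions from a shared promoter, and the run in capitals serves both windows. It covers 18 bases at chr1:55088059-55088076, from -89 to -72 relative to the Hspe1 start (counted as 0), and reads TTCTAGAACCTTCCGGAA on the Hspe1 strand and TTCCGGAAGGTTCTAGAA on the Hspd1 strand. For Hspd1 it lies from -144 to -127 in the window of the start at 55087932 and outside the window of the start at 55088243. In Hsph1 the element TTCTGGAAAGTTC lies 36 to 48 bases after the start used here. Shorter forms are common: GAANNTTC stood in 7.86% and TTCNNGAA in 8.52% of promoters, and both are contained in the longer element. Of the genes without the longer element, Dnaja1 had the short match GAAAATTC, and Dnajb1 and Lonp1 had no match to either form. These matches describe letters within the windows and say nothing of binding in these cells.

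Libraries held 4113713 to 5945518 counts, and levels are given as CPM, counts divided by a library size that was scaled by the trimmed mean of M-values (TMM). Nr4a1, the targeted gene, was low in every library, at 7.07 to 15.7 CPM in KO and 5.87 to 18.02 CPM in WT, and KO minus WT averaged over doses was -0.16 ± 0.19 on the log2 scale (SE, 9 libraries each), which did not pass the test (edgeR quasi-likelihood, adjusted p = 0.789). Counts do not show whether the coding sequence was cut, so the genotype labels are neither borne out nor contradicted by them. The 5 CD8 T cell markers were abundant, at a summed 2301 to 3007 CPM, while Cd4 stayed at or under 1.29 CPM. The 4 NK cell markers were split. Ncr1 stayed at or under 0.89 CPM, Klrb1c at or under 1.95 CPM and Tyrobp at or under 5.66 CPM, but Nkg7 ran from 788 to 1331 CPM. Summed myeloid markers were 10.2 to 25.7 CPM in KO and 31.1 to 62.7 CPM in WT libraries. Background reads, taken as the summed CPM of 1470 genes for olfactory, vomeronasal and trace amine receptors, were 47.2 to 164 CPM in KO LCA50, 121 to 223 CPM in WT LCA50 and 50.4 to 113 CPM in the other 4 groups. In WT every LCA50 library had more background than every other library. A background covariate may thus take up part of the dose difference, and the 2 cannot be fully told apart. KO LCA50 replicate 1 stood apart, with the highest Hspa9, Lonp1, Atf4 and Ddit3 of the 18 libraries, the highest background of the KO libraries and the lowest Hsp90ab1. The main values that it moves are given with and without it, except correlations within groups and with background, which were computed only with it.

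With 50 µM LCA, averaged over both genotypes, 5 of the 10 chaperone genes rose and none fell. Among all tested genes, 7.86% rose and 8.66% fell in that comparison (16.5% changed), at an adjusted p under 0.05. Those that rose were the Hsp110 gene Hsph1, the Hsp90 beta gene Hsp90ab1, the Hsc70 gene Hspa8, the mortalin gene Hspa9 and the Lon protease gene Lonp1. The steps were small, between 1.11-fold for Hsp90ab1 and 1.42-fold for Lonp1. The 10 genes were chosen with earlier results of these data known, so their count against the shares of all genes is no independent evidence. Their log2 SE was 0.04 for Hsp90ab1 and Hspa8, 0.06 for Hsph1, 0.07 for Hspa9 and 0.11 for Lonp1. The median SE over all tested genes was 0.11, so small steps are called more readily for most of these 5 genes. The median log2 fold change was 0.16 over the 10 genes, 0.13 over the 6 cytosolic and 0.26 over the 4 mitochondrial ones, against 0.01 over all tested genes. As the RNA comes from bulk cells, fewer cells of a type and less RNA per cell cannot be told apart.

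Hsph1 encodes Hsp110, which exchanges nucleotide on Hsp70. In KO cells it had 157, 157 and 178 CPM without LCA, 173, 184 and 208 CPM at 10 µM and 203, 194 and 193 CPM at 50 µM. In WT cells it had 178, 191 and 174 CPM without LCA, 219, 197 and 198 CPM at 10 µM and 231, 226 and 215 CPM at 50 µM. In both genotypes every LCA50 library lay above every control library. The highest LCA10 library lay above all LCA50 libraries in KO (208 CPM) and inside the LCA50 range in WT (219 CPM). Averaged over genotypes, LCA50 minus control was 0.28 ± 0.06 on the log2 scale (SE, 6 libraries each, edgeR adjusted p = 0.000491), a 1.22-fold rise (95% interval 1.12 to 1.32).

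The Hsp90 pair differed in level and in the test. Hsp90ab1, the constitutive Hsp90 beta gene and the most abundant of the 10, had 2792, 2889 and 2975 CPM without LCA in KO cells, 2899, 3029 and 3338 CPM at 10 µM and 2757, 3224 and 3327 CPM at 50 µM. In WT cells it had 2863, 2881 and 2778 CPM without LCA, 3218, 2988 and 2972 CPM at 10 µM and 3274, 3296 and 3248 CPM at 50 µM. All 3 WT LCA50 libraries were above all WT controls, whereas KO LCA50 replicate 1 was below every KO control. LCA50 minus control averaged 0.15 ± 0.04 (log2, adjusted p = 0.0123), a call lost without KO control replicate 1 (0.14, adjusted p = 0.0518) or without KO LCA50 replicate 3 (0.12, adjusted p = 0.0606). Hsp90aa1, the Hsp90 alpha gene that heat shock can induce, lay between 322 and 407 CPM in all 18 libraries, with an LCA50 minus control value of 0.10 ± 0.05 that did not pass (adjusted p = 0.155). Within a library, where scaling plays no part, Hsp90ab1 had 7.67 to 9.46 counts for each Hsp90aa1 count. That ratio was 8.15 ± 0.17 in KO LCA50 and 8.12 ± 0.55 in KO control, and 8.95 ± 0.45 in WT LCA50 and 8.38 ± 0.59 in WT control (SD, n = 3 each). LCA50 and control ranges of the ratio overlapped within each genotype, while at 50 µM the KO range (7.98 to 8.31) lay below the WT range (8.60 to 9.46).

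Hspa8, the constitutive Hsc70 that carries clients in unstressed cells, had 847, 883 and 912 CPM without LCA in KO cells, 934, 947 and 928 CPM at 10 µM and 894, 979.9 and 1021 CPM at 50 µM. In WT cells it had 832, 961 and 865 CPM without LCA, 989, 1047 and 979.96 CPM at 10 µM and 1039.6, 1006 and 1006 CPM at 50 µM. The LCA50 libraries lay above all controls in WT, while KO LCA50 replicate 1 (894 CPM) fell within the KO control range. LCA50 minus control averaged 0.17 ± 0.04 on the log2 scale (adjusted p = 0.00807). The mouse genome carries processed copies of Hspa8, Hsp90ab1, Hspd1 and Hspe1, so the assignment of their reads is uncertain, since the treatment of reads that match several places was not stated.

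The J-domain genes gave no call. Dnajb1, a Hsp40 that heat shock can induce, lay between 118 and 149 CPM in all libraries, and its LCA50 minus control value was -0.01 ± 0.06 (adjusted p = 0.932, 95% interval -0.14 to 0.11). Dnaja1, a farnesylated Hsp40, lay between 58.5 and 76.7 CPM, at 0.03 ± 0.08 (adjusted p = 0.853, 95% interval -0.13 to 0.19). Its locus overlaps Smu1 on the other strand by 608 bases, and the use of strand in counting was not stated. The inducible Hsp70 genes Hspa1a and Hspa1b, which rise sharply after heat in many cells, had 0 to 6 and 1 to 14 counts per library and were too low to test. Among the small heat shock protein genes, 6 of 7 were also too low to test, and the other, Hspb6, was at 0.35 ± 0.18 (adjusted p = 0.203).

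**Figure D1:**
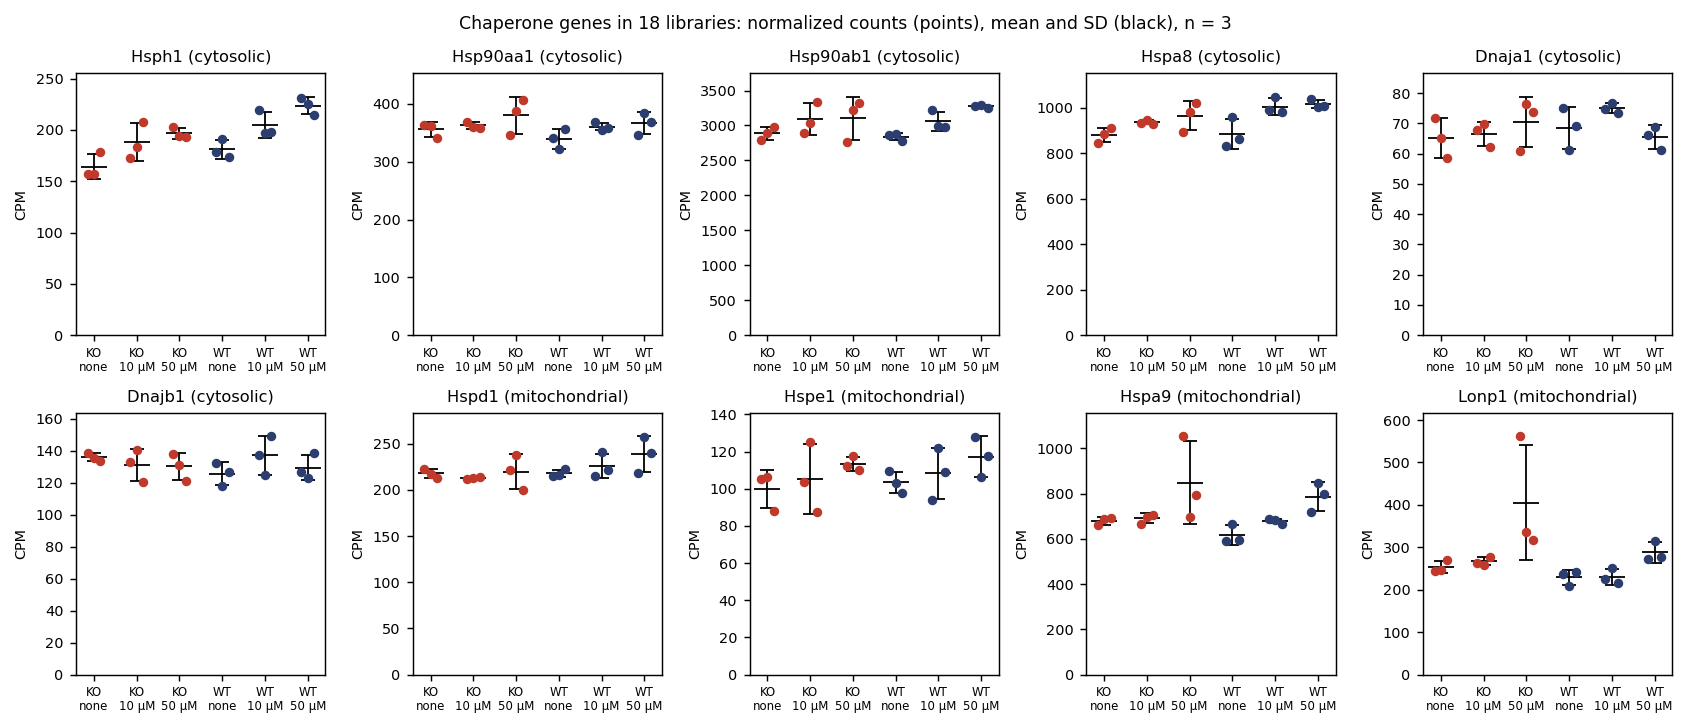
Normalized level (CPM, axes from 0) of the 10 chaperone genes in each library (points), with the mean and SD of 3 libraries (black), for KO (red) and WT (blue) cells at no LCA, 10 µM and 50 µM. Lonp1 and Hspa9 show the widest spread, through KO LCA50 replicate 1 at 562 and 1053 CPM, while Dnaja1 stays between 58.5 and 76.7 CPM and Dnajb1 between 118 and 149 CPM.

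Of the mitochondrial genes, Hspa9 and Lonp1 rose and the chaperonin pair did not pass the test. Hspa9, the mitochondrial Hsp70 that pulls in precursor proteins, had 659.8, 688 and 692 CPM without LCA in KO cells, 666, 699 and 708 CPM at 10 µM and 1053, 696 and 795 CPM at 50 µM. In WT cells it had 589, 666 and 596 CPM without LCA, 686, 683 and 668 CPM at 10 µM and 719.7, 846 and 796 CPM at 50 µM. LCA50 libraries lay above controls in both genotypes, although the lowest KO LCA50 library was inside the KO LCA10 range. LCA50 minus control averaged 0.33 ± 0.07 on the log2 scale (adjusted p = 0.000694), a 1.26-fold rise (95% interval 1.15 to 1.39), and was 0.24 ± 0.05 without KO LCA50 replicate 1 (adjusted p = 0.000205). Background reads ran along with Hspa9 across the 18 libraries (Pearson r = 0.65, and 0.79 within groups). KO LCA50 replicate 1 had the highest Hspa9 of all and the highest background in KO, and these correlations were not computed without it. With background as a covariate the Hspa9 value was 0.21 ± 0.06 (adjusted p = 0.0118).

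Lonp1, the Lon protease of the matrix, had 244, 246 and 271 CPM without LCA in KO cells, 264, 259 and 277 CPM at 10 µM and 562, 337 and 318 CPM at 50 µM. In WT cells it had 236, 209 and 242 CPM without LCA, 225, 252 and 216 CPM at 10 µM and 272, 316 and 277 CPM at 50 µM. In both genotypes the LCA50 libraries were above all control and LCA10 libraries of that genotype, and KO LCA50 replicate 1 was far above the other two. LCA50 minus control averaged 0.50 ± 0.11 on the log2 scale (adjusted p = 0.00687), a 1.42-fold rise (95% interval 1.20 to 1.68). Without KO LCA50 replicate 1 the value was 0.35 ± 0.06 (adjusted p = 8.85e-06), smaller but with a narrower error. With background as a covariate it was 0.38 ± 0.12 and missed the threshold (adjusted p = 0.0618). Background was higher at 50 µM in WT, so this loss does not tell background from dose.

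The chaperonin genes are transcribed from the shared promoter printed above. Hspd1, the Hsp60 ring subunit, lay between 199.9 and 257 CPM, and its LCA50 minus control value was 0.07 ± 0.05 (adjusted p = 0.394). Hspe1, the Hsp10 lid, lay between 87.6 and 128 CPM, at 0.18 ± 0.08 (adjusted p = 0.112, 95% interval 0.02 to 0.34). Neither passed the test, and the intervals leave room for rises of up to 1.13-fold for Hspd1 and 1.27-fold for Hspe1. Hspd1 had 1.70 to 2.44 counts for each Hspe1 count, with group means of 1.94 to 2.19. The genes overlap by 112 bases on opposite strands. For every Hspd1 count there were 1.85 ± 0.60 Lonp1 counts in KO LCA50 and 1.17 ± 0.10 in KO control, and 1.21 ± 0.05 in WT LCA50 and 1.05 ± 0.07 in WT control (SD, n = 3 each). The KO LCA50 libraries had ratios of 2.53 in replicate 1 and 1.41 and 1.59 in the other two.

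By level per kilobase of exon, averaged over all libraries, Hsp90ab1 led with 1151 CPM per kb, followed by Hspa8 at 371, Hspa9 at 235 and Hspe1 at 139 CPM per kb. Hsp90aa1 at 95.8, Lonp1 at 94.5 and Hspd1 at 84.1 CPM per kb were close together. Hsph1 at 45.3, Dnajb1 at 41.1 and Dnaja1 at 11.6 CPM per kb were the lowest of the 10, below the Hsp70 and Hsp90 genes among them. Level per kilobase was not computed for nucleotide exchange and J-domain genes outside the 10. In KO cells the 10 genes together took 0.571 ± 0.012% of counts without LCA, 0.600 ± 0.025% at 10 µM and 0.641 ± 0.013% at 50 µM (SD, n = 3 each). In WT cells they took 0.557 ± 0.013% without LCA, 0.606 ± 0.018% at 10 µM and 0.657 ± 0.015% at 50 µM. In both genotypes every LCA50 library had a larger share than every control library, and Hsp90ab1 contributed more counts than any other of the 10.

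Within genotypes, the LCA50 comparisons gave fewer calls, and each of these calls was lost when some single library was left out. In KO cells 3 of 10 genes rose and none fell, where 2.93% of all genes rose and 3.42% fell (6.35% changed): Lonp1 at 0.67 ± 0.16 (adjusted p = 0.0209), Hspa9 at 0.32 ± 0.09 (adjusted p = 0.0395) and Hsph1 at 0.26 ± 0.08 (adjusted p = 0.0471). The other 7 ran from -0.07 to 0.18. In WT cells 4 rose and none fell, where 3.66% of all genes rose and 4.93% fell (8.58% changed): Hspa9 at 0.35 ± 0.09 (adjusted p = 0.0179), Hsph1 at 0.30 ± 0.08 (adjusted p = 0.0131), Hsp90ab1 at 0.20 ± 0.06 (adjusted p = 0.0331) and Hspa8 at 0.20 ± 0.06 (adjusted p = 0.041). The other 6 ran from -0.06 to 0.33. Without KO LCA50 replicate 1, Hspa9 in KO was 0.13 ± 0.07 (adjusted p = 0.361) and Hsph1 in KO was 0.24 ± 0.09 (adjusted p = 0.142), neither called, and Lonp1 was called in both genotypes, at 0.37 ± 0.08 in KO (adjusted p = 0.00453) and 0.32 ± 0.07 in WT (adjusted p = 0.00222). With background as a covariate, Hspa9 in WT was 0.11 ± 0.09 and not called (adjusted p = 0.604). In WT, background was 121 to 223 CPM at LCA50 and 50.4 to 108 CPM in control, so background and dose cannot be told apart there.

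The response to 50 µM LCA did not differ by a passed test between KO and WT for any of the 10 genes. Over all genes none passed that test either (0%, with 729 of 11651 at an unadjusted p under 0.05, none of them among the 10), while DESeq2 called 1 gene and up to 5 were called higher and 1 lower under other settings, the most without KO LCA50 replicate 1 and with background as a covariate. KO response minus WT response ran from -0.12 for Hspd1 to 0.34 ± 0.23 for Lonp1 (adjusted p = 0.831, 95% interval -0.14 to 0.83). The Lonp1 value rested on KO LCA50 replicate 1 and was 0.04 ± 0.11 without it (adjusted p = 0.93). Without that library the 10 genes ran from -0.21 ± 0.09 for Hspa9 (adjusted p = 0.449) to 0.28 ± 0.16 for Dnaja1 (adjusted p = 0.596). At 10 µM the same difference ran from -0.18 to 0.06, with 0 of 10 genes called, 0% of all genes called, 382 genes at an unadjusted p under 0.05, no gene called by DESeq2 and at most 3 under any other setting.

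At 10 µM LCA, 0 of the 10 genes passed in KO (0.326% of all genes called), in WT (0.386%) or averaged over both (1.82%, with 1.01% higher and 0.807% lower). Averaged over genotypes all 10 values were positive, from 0.01 for Hspd1 to 0.19 ± 0.06 for Hsph1 (adjusted p = 0.0916), where 50.5% of all tested genes were positive. Of the 10, 3 had an unadjusted p under 0.05, as did 1375 of all 11651 tested genes. The values for 10 µM and 50 µM share their control libraries, so their likeness is no separate evidence. For 50 µM against 10 µM, 2 of 10 rose and none fell, where 2.26% of all genes rose and 3.47% fell (5.72% changed). These were Lonp1 at 0.46 ± 0.11 (adjusted p = 0.0276) and Hspa9 at 0.25 ± 0.07 (adjusted p = 0.0203), while the 6 cytosolic genes ran from -0.05 for Dnaja1 to 0.09 for Hsph1. Without KO LCA50 replicate 1 these were 0.31 ± 0.06 for Lonp1 (adjusted p = 0.000199) and 0.16 ± 0.05 for Hspa9 (adjusted p = 0.0354). With background as a covariate both calls were lost, at 0.31 ± 0.13 for Lonp1 (adjusted p = 0.371) and 0.09 ± 0.06 for Hspa9 (adjusted p = 0.633). Every WT LCA50 library had more background than every WT LCA10 library, so these losses do not tell background from dose.

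**Figure D2:**
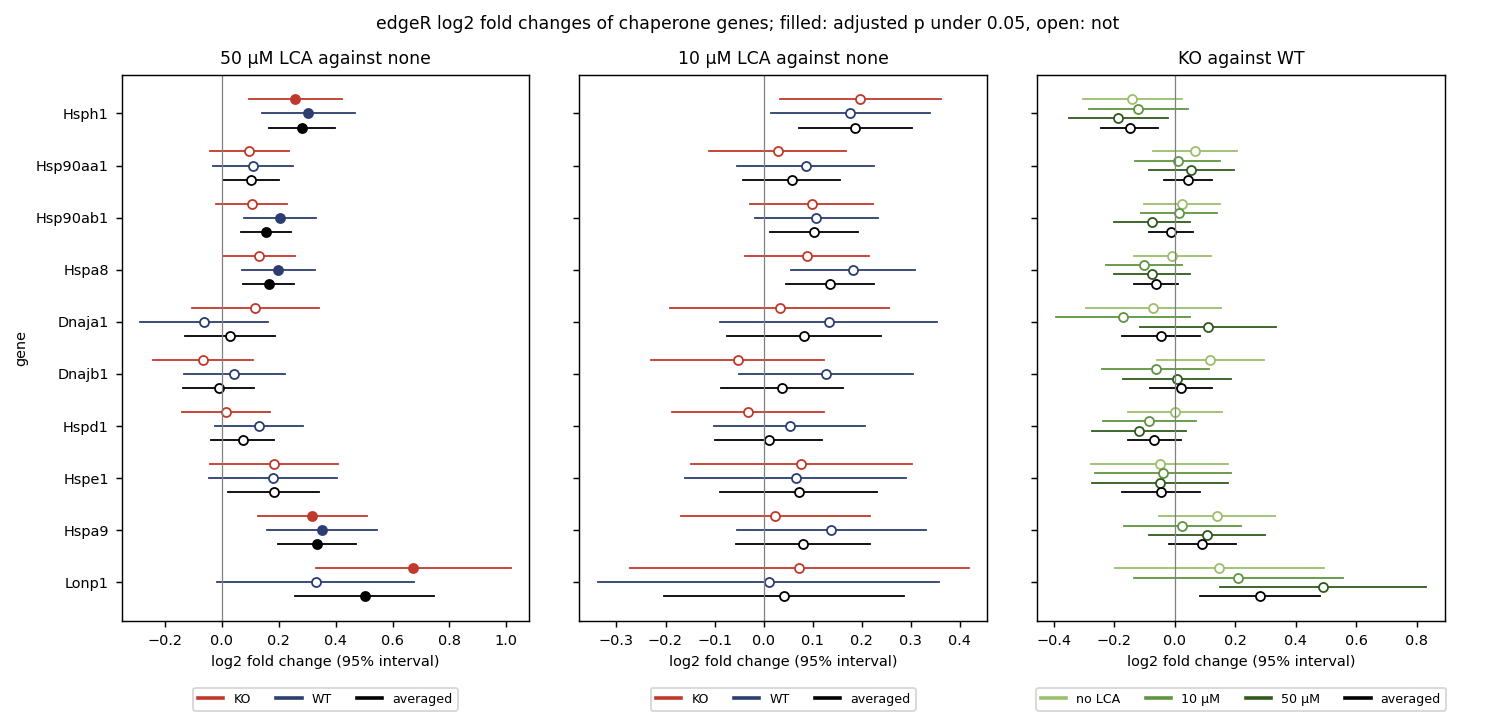
Log2 fold changes of the 10 chaperone genes from edgeR with 95% intervals, for 50 µM LCA against none, 10 µM against none and KO against WT. Points are filled where the adjusted p was under 0.05, and filled points appear for 50 µM only, at Hsph1, Hsp90ab1, Hspa8, Hspa9 and Lonp1, with the widest intervals at Lonp1.

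Between guides, 0 of the 10 genes passed without LCA (0.627% of all genes called), at 10 µM (0.661%), at 50 µM (1.94%, with 1.42% higher and 0.524% lower in KO) or averaged over doses (5.15%, with 3.36% higher and 1.79% lower in KO). The largest values averaged over doses were KO minus WT of 0.28 ± 0.09 for Lonp1 (adjusted p = 0.116) and -0.15 ± 0.05 for Hsph1 (adjusted p = 0.0514). Lonp1 averaged 405 ± 135 CPM in KO and 288 ± 24 CPM in WT at 50 µM (SD, n = 3 each), where the ranges did not overlap. The fitted KO minus WT value at that dose was 0.49 ± 0.16 (adjusted p = 0.164), and 0.19 ± 0.08 without KO LCA50 replicate 1 (adjusted p = 0.226). Among the alternatives it was called without KO LCA50 replicate 3, at 0.64 ± 0.14 (adjusted p = 0.0202), and with no filter on low counts, at 0.50 ± 0.10 (adjusted p = 0.000796). Without KO LCA50 replicate 1 both averaged values were called, Lonp1 at 0.18 ± 0.04 (adjusted p = 0.00609) and Hsph1 at -0.16 ± 0.05 (adjusted p = 0.0341). Hsph1 averaged 164 ± 12.4 CPM in KO and 181 ± 9.28 CPM in WT without LCA, 188 ± 18.1 CPM in KO and 205 ± 12.6 CPM in WT at 10 µM, and 197 ± 5.42 CPM in KO and 224 ± 8.35 CPM in WT at 50 µM. The ranges of KO and WT overlapped without LCA and at 10 µM, and not at 50 µM, where the fitted KO minus WT value was -0.19 ± 0.08 and not called (adjusted p = 0.274). For Hsph1 and Lonp1 alike, how many of all tested genes have separate ranges in 3 against 3 libraries was not counted. Of the other 8 genes, Hspa9 averaged a difference of 0.09 ± 0.05 (adjusted p = 0.467), Hsp90aa1 of 0.04 ± 0.04 (adjusted p = 0.693) and Dnajb1 of 0.02 ± 0.05 (adjusted p = 0.912). Hsp90ab1 was at -0.01 ± 0.04 (adjusted p = 0.915), Dnaja1 at -0.05 ± 0.06 (adjusted p = 0.823) and Hspe1 at -0.05 ± 0.06 (adjusted p = 0.817). Hspa8 was at -0.06 ± 0.04 (adjusted p = 0.439) and Hspd1 at -0.07 ± 0.04 (adjusted p = 0.51).

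Other genes of the chaperone systems were read in the same averaged LCA50 comparison, where 7.86% of all tested genes rose and 8.66% fell. In the cytosolic Hsp70 and Hsp90 system, 31 of 34 listed genes were tested, of which 2 rose and none fell: Dnajc2, a ribosome-associated J protein, at 0.22 ± 0.05 (adjusted p = 0.00227) and Unc45a, a myosin and Hsp90 cochaperone, at 0.25 ± 0.08 (adjusted p = 0.0319). None of the 14 subunit genes of the TRiC chaperonin and prefoldin, which fold actin and tubulin, was called, and the most abundant were Cct5 at -0.08 ± 0.05 and Cct7 at -0.01 ± 0.04. The median over each of those lists was 0.01, the same as over all genes. Among heat shock factors and their regulator, 0 of 4 tested genes were called, with Hsf1, the main heat shock factor, at 0.16 ± 0.08 (adjusted p = 0.176) and Hsbp1, which binds it, at -0.11 ± 0.08 (adjusted p = 0.375).

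Of 21 other mitochondrial chaperone cofactors and proteases, 2 rose and 2 fell, near the shares of all tested genes (7.86% higher, 8.66% lower). Dnaja3, a J protein that works with mortalin, rose by 0.26 ± 0.07 (adjusted p = 0.00911), and Pmpca, a subunit of the presequence peptidase, by 0.16 ± 0.05 (adjusted p = 0.0356). Dnajc15, a J protein of the inner membrane, was at -0.31 ± 0.06 (adjusted p = 0.00082) and Yme1l1, a protease of the inner membrane, at -0.26 ± 0.07 (adjusted p = 0.00968), and both fell. The list's median was 0.03. The stress transcription factors Atf4 and Ddit3 rose, at 0.54 ± 0.07 (adjusted p = 6.0e-06) and 1.07 ± 0.25 (adjusted p = 0.0087), while the other 2 of the 4 listed were not called. Atf4, the factor of the integrated stress response, had 605, 415 and 429 CPM in KO LCA50 and 323, 326 and 339 CPM in KO control, and 404, 470.0 and 452 CPM in WT LCA50 and 322, 288 and 309 CPM in WT control. In both genotypes the LCA50 range lay wholly above the control range. Of the CD8 T cell markers, Cd8b1 and Cd3g fell in the same comparison, to log2 fold changes of -0.47 ± 0.05 (adjusted p = 8.66e-08) and -0.25 ± 0.07 (adjusted p = 0.00961). Markers of other cells moved as well: of the CD4 T cell markers Zbtb7b rose (1.08 ± 0.36, adjusted p = 0.0414), at 0.20 to 20.02 CPM over all libraries and highest in KO LCA50 replicate 1, and Foxp3 was at 0.38 ± 0.15 (adjusted p = 0.0825). The 4 CD4 T cell markers summed to 18.6 to 36.2 CPM in KO LCA50 and 14.3 to 18.6 CPM in KO control, and to 20.7 to 25.7 CPM in WT LCA50 and 12.6 to 17.97 CPM in WT control, with Cd4 itself near 0. The B cell marker Cd79b fell (-0.84 ± 0.21, adjusted p = 0.0037), at 3.81 to 11.1 CPM over all libraries. The part of these markers in the chaperone results was not tested.

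**Figure D3:**
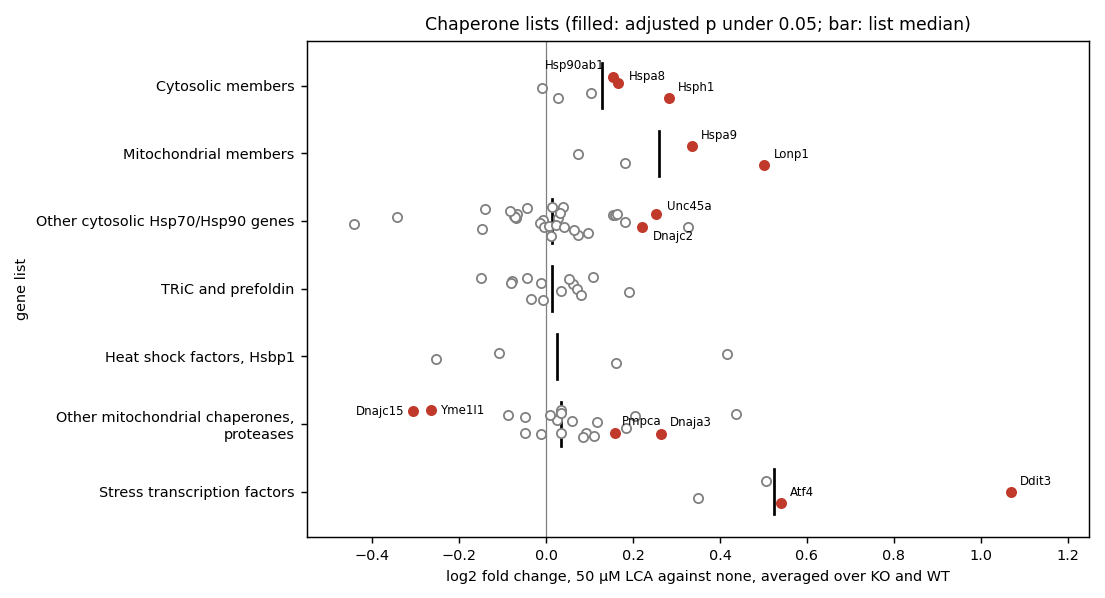
Log2 fold change for 50 µM LCA against none, averaged over KO and WT, of the 10 chaperone genes and of the other listed genes (1 point a gene, vertical jitter only, filled where the adjusted p was under 0.05, bar at the list median). The cytosolic and mitochondrial members have medians of 0.13 and 0.26, the other Hsp70 and Hsp90 genes and TRiC each have a median of 0.01, and Atf4 and Ddit3 are at 0.54 and 1.07.

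Correlations between the 10 genes over the 18 libraries differed by pair and, for several pairs, with the inclusion of KO LCA50 replicate 1. They are given as descriptions over libraries that share the dose groups and scaling. Between cytosolic genes they ran from -0.32 to 0.73, with a median of 0.11, and the highest joined Hsph1 with Hspa8 (0.73), Hsp90ab1 with Hspa8 (0.72) and Hsph1 with Hsp90ab1 (0.71). Between mitochondrial genes they ran from 0.16 to 0.85, where Hspa9 and Lonp1 stood at 0.85, or 0.64 without KO LCA50 replicate 1. The 24 pairs across compartments ran from -0.36 to 0.47, with a median of 0.17, and from -0.30 to 0.78, with a median of 0.22, without that library. Its removal took Hsp90ab1 with Hspa9 to 0.78, against 0.23 with it, Hsp90ab1 with Lonp1 to 0.65, against 0.06, and Hsp90aa1 with Lonp1 to 0.71, against 0.24. Hspa9 and Lonp1 followed Atf4 with r = 0.88 each, or 0.77 for Hspa9 and 0.79 for Lonp1 without that library, while Hspd1 stood at 0.37 (0.50 without it) and Hspe1 at 0.48 (0.55 without it). Among cytosolic genes the correlation with Atf4 was 0.63 without that library and 0.34 with it for Hsp90aa1. It was 0.60 and 0.19 for Hsp90ab1, 0.57 and 0.29 for Hspa8, 0.10 and -0.14 for Dnaja1, and -0.07 and 0.08 for Dnajb1. Within-group values were computed over all 18 libraries only, so how far they rest on KO LCA50 replicate 1 was not tested. That library had the highest Atf4 and Lonp1 and the lowest Hsp90ab1. Within groups the correlation with Atf4 was -0.81 for Hsp90ab1, -0.49 for Hspa8 and -0.37 for Hsp90aa1. It was -0.28 for Dnaja1, -0.23 for Hsph1 and 0.39 for Dnajb1. Among mitochondrial genes the within-group values were 0.69 for Hspa9, 0.83 for Lonp1, 0.29 for Hspd1 and 0.21 for Hspe1. Hsph1 had r = 0.77 with Hsf1 and 0.41 with Atf4 (0.44 without that library). Its correlation with Hsf1 was the highest of the 10 genes. The others ran from -0.10 for Dnajb1 to 0.47 for Hsp90ab1, with Hspe1 at 0.01 and Hspd1 at 0.34.

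**Figure D4:**
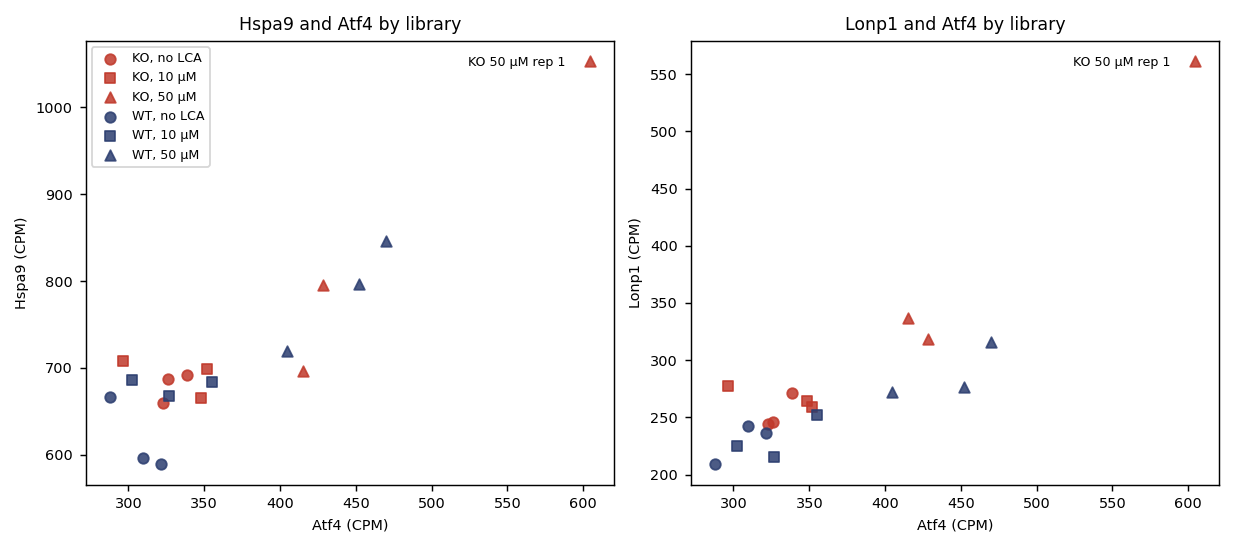
Level of Hspa9 and of Lonp1 (CPM) against Atf4 (CPM) in the 18 libraries, by genotype (color) and dose (shape), on axes that do not start at 0. The LCA50 libraries lie to the right, from 404 CPM of Atf4 up, and KO LCA50 replicate 1 at 605 CPM of Atf4 is the farthest point in both plots.

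Genes outside the 10 were ranked by how closely they tracked the mean standardized log2 CPM of each compartment over 18 libraries, among 9750 genes with a mean of at least 5 CPM. Closest to the cytosolic mean were Hist1h4d, a histone H4 gene (r = 0.91), Eomes, a T-box transcription factor (0.88), B4galt5, a galactosyltransferase gene (0.84), Akt2, a kinase gene (0.84), and Zyx, the zyxin gene (0.84). Closest to the mitochondrial mean were Cish, a cytokine signalling inhibitor gene (0.93), Atf4 (0.93), Trib3, a pseudokinase gene (0.90), Slc1a5, a glutamine transporter gene (0.90), and Adpgk, an ADP-dependent glucokinase gene (0.89). Without KO LCA50 replicate 1 these ran from 0.84 to 0.91 over both sets. With 9750 genes ranked on 18 libraries, high values at the top of such a list are common, and no test is attached to them.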

How the data were processed

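The counts were deposited by the authors as a table of whole-number raw counts per gene symbol, not normalized. The submitters' processing notes name STAR, HOMER, DESeq2 and the builds GRCm38 and mm10, with no versions or roles. How reads were filtered and counted, and whether strand was used, was not stated in the sources used here.

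All 18 libraries entered a single edgeR 4.0.16 model (R 4.3.3) with a mean for each of 6 groups. Genes were filtered with filterByExpr (11651 of 24537 kept), scaled by TMM and tested by robust quasi-likelihood F tests in 13 contrasts. P-values were adjusted by Benjamini-Hochberg over all tested genes within a contrast and called under 0.05. A standard error is the absolute log2 change divided by the root of F, and a rise or fall is a called gene. Statements that the ranges of 2 groups overlap or lie apart are descriptions of 3 libraries a group, and the share of all genes with separate ranges was not counted. Correlations used log2 CPM with a prior count of 2. CPM per kb used exon unions of GENCODE on GRCm38. Alternatives were DESeq2 1.42.0, its size factors in edgeR, no filter, a mean CPM of at least 5, only the compared groups, a replicate block, a covariate of receptor background, both highest-background LCA50 libraries removed (chosen with earlier results known), and each library left out in turn. The code was checked on simulated data.

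The members and gene lists were chosen with earlier results of these data known. Every member was described in every group, with fold change, standard error and adjusted p for LCA50 against control and KO against WT, both averaged, and elsewhere for called members. Of each other list, up to 3 called genes each way with the smallest p in the averaged LCA50 comparison were named, and where there were none the 2 most abundant; Hsf1, Hspa1a, Hspa1b and Nr4a1 were always named, as were the 5 genes most like each compartment's mean. Marker genes, Hspb6 and the library values were added to these.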

Additional observations from a re-analysis of the deposited data

How the results depend on the processing

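Over 26 other settings, 754 values of 29 fold changes kept direction and side of the threshold in 648, lost the call in 87, gained it in 10 and changed sign in 9. In averaged LCA50 against control, 4 to 5 of the 10 genes were called higher with any single library left out and none lower, and Hsph1, Hspa8 and Hspa9 kept their call under every setting. Counts of called genes moved elsewhere. In KO LCA50, 3 genes became 1 with the replicate block, 1 without the highest-background libraries and 0 with the compared groups alone, with 0 to 3 when single libraries were left out: 0 without KO control replicate 1 or 2, and 1 without WT control replicate 1 or KO LCA50 replicate 1. In WT LCA50, 4 became 2 with no filter and 1 with the background covariate, with 0 to 5 on leaving out single libraries: 0 without WT control replicate 1 or 3 or WT LCA50 replicate 2, and 1 without WT LCA50 replicate 3. Over all 26 settings this count was 2 or fewer in 13. For LCA50 against LCA10, 2 became 0 with the covariate, 1 without the highest-background libraries and 0 with the compared groups alone, and 0 to 2 on leaving out single libraries, 0 without WT LCA10 replicate 3, KO LCA10 replicate 1 or WT LCA50 replicate 2. Over all 26 settings this count was under 2 in 10. The cause was not tested, except that the compared groups alone leave fewer libraries to estimate spread.

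KO against WT had no call, but Lonp1 was called higher at 50 µM (1 gene) and averaged (1 gene) with no filter, and averaged also without the highest-background libraries (1 gene). Hsph1 was called lower, averaged, in DESeq2 (1 gene), with mean CPM of at least 5 (1 gene) and without the highest-background libraries (1 gene). On leaving out single libraries these counts were 0 to 1 each. Signs changed only near 0: Hsp90ab1 in averaged KO against WT was 0.0108 without the highest-background libraries and ran from -0.0333 to 0.0137 on leaving out single libraries, and Dnaja1 (-0.0139 to 0.0693) and Dnajb1 (-0.0393 to 0.00813) in averaged LCA50 also crossed 0 that way. Single-genotype LCA50 calls were unsteady on leaving out each of 18 libraries. Hsph1 in KO lost its call in 13 (adjusted p up to 0.202) and Lonp1 in KO in 2 (0.0777: KO control replicates 1 and 2). Hspa9 in KO lost it in 6 (0.361: any KO control, WT control replicate 1, KO LCA10 replicate 3, KO LCA50 replicate 1). In WT it was lost in 15 for Hspa8 (0.239), 12 for Hsp90ab1 (0.148), 4 for Hspa9 (0.113) and 3 for Hsph1 (0.0821). The averaged calls for LCA50 against LCA10 were unsteady too, lost in 7 for Lonp1 (0.0794) and 3 for Hspa9 (0.0693).

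Counts over all tested genes moved too. Across all settings, averaged LCA50 had 586 to 971 genes higher (916 as reported) and 643 to 1093 lower (1009), KO LCA50 had 159 to 425 higher (341) and 199 to 527 lower (399), WT LCA50 had 135 to 544 higher (426) and 137 to 772 lower (574), and LCA50 against LCA10 had 48 to 328 higher (263) and 122 to 517 lower (404). For the response difference at LCA50, 0 to 5 genes were higher and 0 to 1 lower, and at LCA10 0 to 3 were higher and none lower (0 as reported in each). Of the other listed genes, 6 rose and 2 fell in averaged LCA50, 8 and 3 in DESeq2, and 6 and 2 with the block.

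Libraries with the same replicate number did not deviate together (r from -0.22 to 0.09 over 45 pairs, 0 above 0.1), so the block shares only a number. The 3 libraries a group and 4113713 to 5945518 counts limit what changes of this size can be seen.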

Other observations

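Lonp1 was compared with other genes on its own after its values were seen. Over the 18 libraries its highest Pearson correlations were with Ccnd2 (0.94), Fkbp1a (0.94), Irs2 (0.93), Fam129a (0.93) and Ubtd1 (0.92), and without KO LCA50 replicate 1 these were 0.83, 0.85, 0.81, 0.80 and 0.83. A site of the type bound by ATF4, TGATGNAAT, searched on both strands after the values were seen, was in none of the 11 windows and in 0.965% of mouse promoters, which says only that these letters are not in these windows.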
